A study of Mus musculus with 22 samples.

Results

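Conventional type 1 dendritic cells (cDC1s) of the mouse were compared between 2 organs, the spleen and the mesenteric lymph node (MLN), the node that drains the intestine. All genes of the bulk RNA-seq table were considered in the 6 libraries labelled as cDC1s, 3 from spleen and 3 from MLN, of 16 RNA-seq libraries and 22 libraries in the whole series. The methods give 2 biological replicates for MLN whereas the labels give 3 cDC1 libraries, which were all used as replicates, and whether the 3 came from separate pools of mice is not given in the sources used here. The cells of both organs came from Tbx21 RFP-cre reporter mice of 6 to 10 weeks, in which a red fluorescent protein reports the transcription factor T-bet, so every library carries the reporter allele. The labels name no treatment. Cells negative for lineage markers, CD3 and CD90 among them, and for CD64 and Ly6C, and positive for CD11c and MHC class II were sorted as CD11b- XCR1+, with 2 mice contributing to every library. The gate did not separate resident from migratory cells in the MLN. The remaining RNA-seq libraries hold cDC2s, T-bet+ or T-bet-, with 3 spleen and 2 MLN libraries per subset, and were used to ask whether the tissue difference was larger or smaller in cDC1s.

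cDC1s are the dendritic cells that depend on the transcription factors IRF8 and BATF3 and that take up dead cells and present their antigens on MHC class I to CD8 T cells. The spleen receives its dendritic cells from blood, whereas a lymph node holds both resident cells and cells that matured in the drained tissue and arrived through lymph. Maturation of a dendritic cell brings the chemokine receptor CCR7, which guides it to the node, together with cytoskeletal, costimulatory and chemokine genes, and intestinal migratory dendritic cells are known for the enzymes that make retinoic acid. In bulk RNA a higher share of such cells and more RNA of a gene per cell cannot be told apart.

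Between 20993220 and 29006549 reads were counted on genes per cDC1 library. Values below are normalized counts, that is counts scaled by edgeR's TMM factors to a library of average size, and are given in the order of replicates 1, 2 and 3. A gene is called when its Benjamini-Hochberg adjusted p in edgeR's quasi-likelihood test was under 0.05, and log2 fold changes are MLN over spleen, so that positive values are higher in MLN. In a principal component analysis of the 6 libraries the first component held 65.3% of the variance and separated the organs, but MLN replicate 1 (-17.3) and spleen replicate 3 (7.40) lay nearer to each other than the other libraries of their groups (-57.4 and -48.0 for MLN, 61.3 and 54.1 for spleen). Spleen replicate 3 also differed from the other spleen libraries in how its deviations correlated with the GC content of transcripts (Spearman's rho across genes -0.26, against 0.25 and 0.34, and -0.18 to 0.04 in MLN). Results are therefore also given without these libraries and with this correlation as a term. Which sequencer ran which library is not given in the sources used here, so no value within a batch can be had.

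The sort marker Xcr1, the receptor for the chemokine XCL1, had 19942, 21926 and 28769 normalized counts in spleen and 30172, 11009 and 14382 in MLN (mean ± SD 23546 ± 4631 and 18521 ± 10230.0, n = 3 libraries each), and the groups overlapped. The sort used this marker, so its level is a check of the label and no result. Of the 25 genes in a list of cDC1 identity genes 0 were called higher in MLN and 1 was called lower. In the comparison as a whole 11.5% of genes were called, 7.66% as higher in MLN and 3.86% as higher in spleen. The median log2 fold change of the list was -0.52, against 0.01 over all 16795 genes tested.

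Within the identity list the genes of the core program overlapped between organs. Clec9a, a receptor for dead cells, had 3669.7, 4659 and 5063 normalized counts in spleen and 4606, 1983 and 2737 in MLN. Irf8 had 99709, 95585 and 66795 in spleen and 78762, 51233 and 67027 in MLN, and its partner Batf3 had 3988, 2326 and 2239 in spleen and 2263, 2864 and 2441 in MLN. None of the 3 genes passed the test, nor did Flt3 (the receptor of the growth factor on which dendritic cells depend), Tlr3 (a sensor of double-stranded RNA) or Itgae (the integrin CD103), with log2 fold changes of -0.23, 0.06 and -0.14. The signs of Batf3, Flt3, Tlr3 and Itgae turned in other fits.

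A few surface genes of the identity list were lower on average in MLN but missed the threshold. Cd8a, which encodes the CD8 alpha chain, had 26520.3, 22378 and 28865 normalized counts in spleen and 12420.3, 5483 and 7705 in MLN (log2 fold change -1.6, SE 0.61, adjusted p = 0.0977). Cd207, the C-type lectin langerin, had 18127, 15233 and 16893 in spleen and 5207, 1235 and 1605 in MLN (log2 fold change -2.64, SE 0.81, adjusted p = 0.0505), and Cadm1, an adhesion molecule, had 18264, 18578 and 8473 in spleen and 6211, 3395 and 4343 in MLN (adjusted p = 0.125). For each of these 3 genes the organs did not overlap, as for 29.2% of all genes tested. In the list of 25, 6 genes were higher in spleen without overlap and 1 was higher in MLN. Without MLN replicate 1, which lay nearest to spleen, 6 of the identity genes were called higher in spleen. Nfil3, a transcription factor needed for cDC1 development, was the 1 called member, with 4655, 3348 and 396 normalized counts in spleen and 271, 254 and 511 in MLN (log2 fold change -3.02, SE 0.71, adjusted p = 0.0179). Spleen replicate 3 lay within the MLN range for Nfil3, and 0 identity genes were called without spleen replicate 1, spleen replicate 2 or MLN replicate 2. At an unadjusted p under 0.05, 1 member was higher in MLN and 6 were lower, and DESeq2 called 0 and 4.

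**Figure D1:**
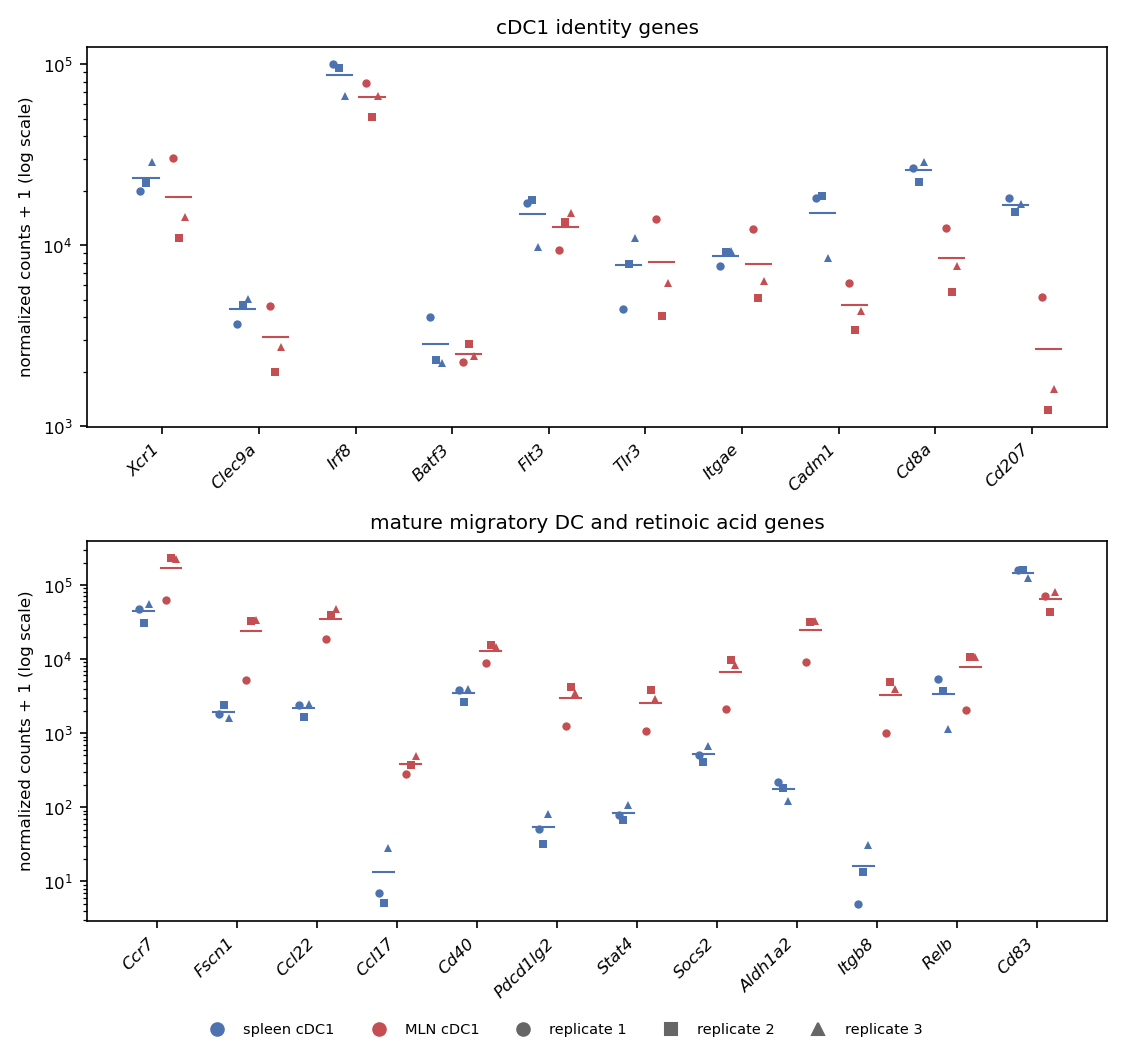
Normalized counts plus 1 on a log axis for cDC1 identity genes (top) and mature migratory dendritic cell and retinoic acid genes (bottom). Each symbol is 1 library (circle, square and triangle for replicates 1, 2 and 3), blue for spleen and red for MLN, and bars are means of 3 libraries. Identity genes such as Xcr1 and Clec9a overlapped between organs, while Aldh1a2 lay at 119.7 to 219 in spleen and at 9018 to 32872 in MLN, with MLN replicate 1 the lowest MLN library for each gene of the lower panel except Cd83.

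Across all genes 1936 of 16795 were called, 1287 higher in MLN and 649 higher in spleen. The organs did not overlap for 1750 of the 1936, and for 4911 (29.2%) of all genes tested. The median log2 fold change was 2.02 among the genes higher in MLN and -1.99 among those higher in spleen, and 357 and 154 genes lay beyond 3 on the log2 scale in each direction. MLN replicate 1 was the lowest MLN library for 1124 of the 1287 genes higher in MLN, and spleen replicate 3 was the highest spleen library for 778 of them. Without MLN replicate 1, 2929 genes were called (1666 higher in MLN), and without spleen replicate 3, 2569 were (1365 higher in MLN). Leaving out another library gave 596 (MLN replicate 2), 639 (MLN replicate 3), 598 (spleen replicate 1) and 520 (spleen replicate 2), so the number of calls depended on which libraries were in the fit. With the GC correlation as a term 2578 genes were called, and DESeq2 called 3513.

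**Figure D2:**
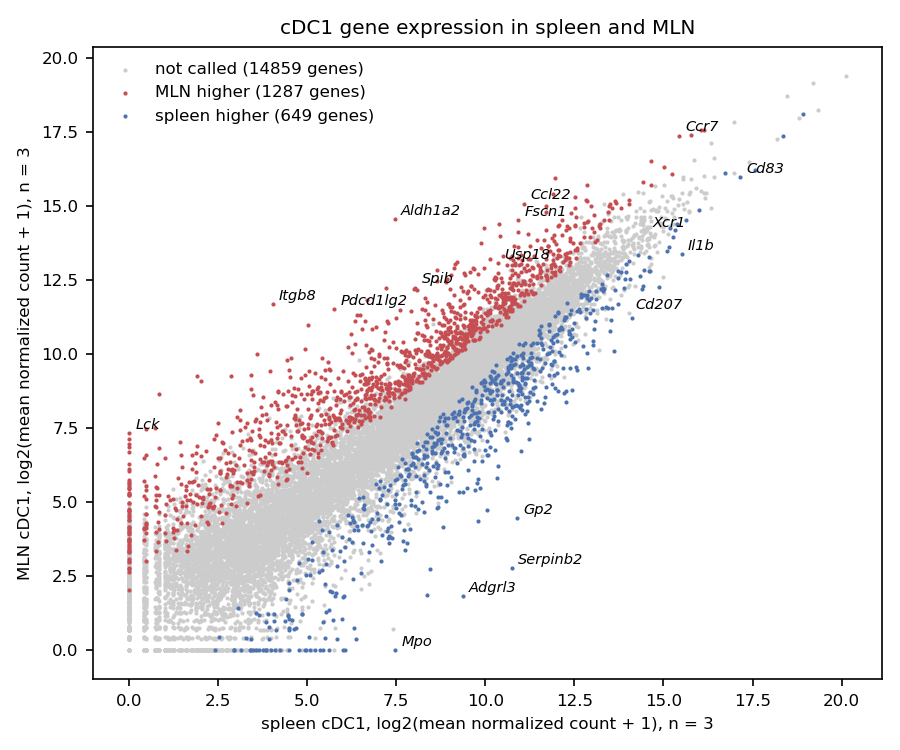
Mean normalized count plus 1 on the log2 scale in spleen cDC1s (x axis) and MLN cDC1s (y axis), n = 3 libraries each. Each point is 1 of 16795 genes tested, red for the 1287 called higher in MLN, blue for the 649 called higher in spleen and gray for the others. Aldh1a2, Itgb8, Pdcd1lg2 and Spib lie far above the diagonal, and Adgrl3, Gp2, Serpinb2 and Mpo far below it.

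Genes of mature migratory dendritic cells were mostly higher in MLN. Of 45 tested members 30 were called higher in MLN, 2 were called lower and 13 did not pass the test, with a median log2 fold change of 2.03. Ccr7 itself had 47580.2, 30921 and 55180.0 normalized counts in spleen and 63238, 228629.7 and 222959 in MLN (log2 fold change 1.95, SE 0.47, adjusted p = 0.0206), so all 3 MLN libraries exceeded the spleen libraries but MLN replicate 1 did so by little. Fscn1, which bundles actin in dendrites, had 1805, 2411 and 1603 in spleen and 5271, 32580.2 and 33984 in MLN (log2 fold change 3.63, SE 0.72, adjusted p = 0.00785). Socs2, a suppressor of cytokine signaling, had 505, 405 and 671 in spleen and 2140.5, 9571 and 8205 in MLN (log2 fold change 3.65). For all 30 genes MLN replicate 1 was the lowest MLN library and still exceeded every spleen library. Without MLN replicate 1 the count was 34, without spleen replicate 3 it was 29, without spleen replicate 1 or 2 it was 18 each, and without MLN replicate 2 or 3 it was 22 each. Ccr7 lost its call in 6 of 17 alternative fits, whereas Fscn1 and Socs2 lost theirs in 1 each.

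Chemokines that attract T cells were among the members with the smallest adjusted p. Ccl22 (chr8:94745590-94751699 of mm10), which binds CCR4, had 2420.0, 1645 and 2483 normalized counts in spleen and 18574, 39418 and 47056 in MLN (log2 fold change 4.0, SE 0.43, adjusted p = 3.46e-04). Ccl17, a further ligand of CCR4, had 6.01, 4.07 and 27.5 in spleen and 277, 366 and 493 in MLN (log2 fold change 4.94, SE 0.72, adjusted p = 0.0017). For neither gene did the organs overlap. Among 20 chemokine genes 5 were higher in MLN (Ccl5, Ccl9, Ccl17, Ccl22 and Cxcl1) and 2 were lower (Ccl3 and Ccl6), with a median log2 fold change of 0.39. Ccl5, which attracts T cells, had 4026, 1687 and 4378 in spleen and 7839, 44113 and 34873 in MLN, and Cxcl1, a neutrophil chemoattractant, had 18, 17.3 and 13.2 in spleen and 127, 462 and 408 in MLN.

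The ligands with which dendritic cells stimulate or restrain T cells did not move together. Of 22 costimulatory and checkpoint ligand genes 8 were higher in MLN and 2 were lower (Cd86 and Havcr2), with a median log2 fold change of 0.80. Pdcd1lg2 (chr19:29410919-29471161 of mm10) encodes PD-L2, a ligand of the inhibitory receptor PD-1. It had 50.1, 30.5 and 79 normalized counts in spleen and 1239.9, 4159.6 and 3481 in MLN, an increase of 55.7-fold (log2 fold change 5.8, SE 0.51, adjusted p = 9.89e-05). Cd274, which encodes the related ligand PD-L1, rose less, with 1560.3, 2165 and 2473 in spleen and 3558, 8773 and 8947 in MLN (log2 fold change 1.78). Slamf1, a self-binding adhesion receptor, had 20, 16.3 and 25.1 in spleen and 366, 1213 and 1083 in MLN (log2 fold change 5.43), and Cd40, the receptor for CD40 ligand on T cells, had 3857, 2649.7 and 3958 in spleen and 8814, 15507 and 14759 in MLN (log2 fold change 1.9, SE 0.32, adjusted p = 0.00349). The 2 genes of the migratory list that fell, Cd83 and Cd86, are maturation markers too. Cd83, which stabilizes MHC class II on the surface, had 157726, 157545 and 123807 in spleen and 70209, 43395 and 81438 in MLN (log2 fold change -1.17, SE 0.28, adjusted p = 0.0176), and Cd86, a ligand of CD28, had 14176, 16387 and 19438 in spleen and 11973, 7011 and 8372 in MLN (log2 fold change -0.87, SE 0.26, adjusted p = 0.0455). Relb, the NF-kB subunit of mature dendritic cells, had 5302, 3706 and 1127 in spleen and 2084, 10598 and 10758 in MLN and did not pass the test (adjusted p = 0.351).

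Genes linked to retinoic acid and integrin beta8, by which intestinal dendritic cells are known to favor regulatory T cells and gut homing, included large differences between the organs. Aldh1a2 (chr9:71215789-71296243 of mm10) encodes the retinaldehyde dehydrogenase that makes retinoic acid. It had 219, 183 and 119.7 normalized counts in spleen and 9018, 31609 and 32872 in MLN, with no overlap, an increase of 140-fold (log2 fold change 7.13, SE 0.77, adjusted p = 3.46e-04). Itgb8 (chr12:119158022-119238802 of mm10), the integrin chain that activates latent TGF-beta, had 4.01, 12.2 and 29.9 in spleen and 999.97, 4918 and 3971 in MLN (log2 fold change 7.76, SE 1.34, adjusted p = 0.00417). Dhrs3, a retinaldehyde reductase that is itself induced by retinoic acid, had 214, 167 and 246 in spleen and 448, 749.9 and 618 in MLN (log2 fold change 1.53). Of the 20 tested members of the list these 3 were higher in MLN and 3 were lower (Tgfb1, Tgfbi and Smad7), with a median of -0.07, so the list did not move as a whole. Tgfb1, the cytokine TGF-beta1, had 1939, 2951 and 1278 normalized counts in spleen and 813, 517 and 649 in MLN. Aldh1a2 and Itgb8 kept their calls in all but 1 alternative fit each, the fit of 6 libraries with the replicate number as a block, which called 0 genes.

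Some other genes with the largest increases had no read in any spleen library. Lck, a kinase of T cell receptor signaling, had 0 counts in all 3 spleen libraries and 67.3, 285 and 131 normalized counts in MLN, at least 50.1-fold higher than the 3 counts per library that a count of 0 allows. Cftr, a chloride channel, and Gimap3, a GTPase of lymphocytes, likewise had 0 in spleen. In MLN Cftr had 32.1, 150.2 and 169 (at least 36.4-fold higher) and Gimap3 had 23.1, 283 and 116 (at least 43.8-fold higher). The unnamed transcript RP23-2F19.2 also had no spleen read, and was at least 31.8-fold higher in MLN. Tnik, Idi2 and Thbs4 had at most 7.13 normalized counts in any spleen library and 71.3 or more in each MLN library. Spib, a transcription factor best known in plasmacytoid dendritic cells and B cells, had 218, 220.0 and 347 in spleen and 1310.2, 7116 and 6229 in MLN (log2 fold change 4.22, SE 0.50, adjusted p = 6.79e-04).

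T cell genes moved with these results. Of 10 tested T and NK cell markers 6 were higher in MLN (Cd3e, Cd3g, Trac, Trbc2, Lck and Il7r) and 1, Cd5, was lower, with a median log2 fold change of 4.36 (3.88 with Lck at its bound). Their summed level ranged from 204 to 549 normalized counts in spleen and from 776 to 3446 in MLN. Most of the sum in MLN came from Il7r, which is also in the migratory list (29.1, 39.7 and 207 in spleen and 523, 2754 and 2238 in MLN). Trac, the constant region of the T cell receptor alpha chain, had 9.02, 4.07 and 5.98 in spleen and 26.1, 96.6 and 85.6 in MLN, so the T cell receptor genes stayed below 100 normalized counts. Each of the 6 was lowest in MLN replicate 1 among MLN libraries, as the migratory genes were, and their part in the results was not tested. Of 11 plasmacytoid dendritic cell markers 2 were higher in MLN (Spib and Bst2).

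Interferon-stimulated genes were mostly higher in MLN as well. Of 30 tested members 22 were called higher by edgeR and 24 by DESeq2, 0 were called lower by either tool or at an unadjusted p under 0.05, with a median log2 fold change of 1.82. Usp18, which removes ISG15 from proteins and dampens interferon signaling, had 1233, 1152 and 1547 normalized counts in spleen and 5881, 9675 and 10698 in MLN (log2 fold change 2.74, SE 0.30, adjusted p = 3.46e-04). Oas1a, of the family that senses double-stranded RNA, had 52.1, 31.6 and 58.6 in spleen and 383, 197 and 264 in MLN (log2 fold change 2.57, SE 0.32, adjusted p = 7.98e-04), and Ifit1, which binds viral RNA, had 25.1, 22.4 and 65.8 in spleen and 219, 354 and 265 in MLN (log2 fold change 2.89, SE 0.40, adjusted p = 0.00129). The libraries were ordered differently from the migratory genes. MLN replicate 1 was the highest MLN library for 12 of the 22 genes and the lowest for 8, and it exceeded every spleen library for all 22. Irf7, the factor that amplifies interferon production, had 4374, 3768 and 4906 normalized counts in spleen and 16577, 6933 and 7039 in MLN, and Isg15, the ubiquitin-like protein, had 412, 307 and 309.9 in spleen and 1645, 1390.5 and 1152 in MLN. The count was 18 without MLN replicate 1, 20 without spleen replicate 3, 16 and 17 without MLN replicates 2 and 3, and 10 and 11 without spleen replicates 1 and 2. Ifnb1, which encodes interferon beta, had no read in any of the 6 libraries, which allows up to 3 counts in each.

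Promoters of these genes were read for the interferon-stimulated response element, because members of a list that move together may share it. The element was searched as GAAANNGAAA on both strands of the 250 bases before each gene start in RefSeq (GRCm38.p6), with overlapping matches allowed. Among the 22 genes higher in MLN 18 had a promoter in the table and 10 of these held a match (55.6%), against 3.46% of 27025 genes with a promoter. Over the whole list, called or not, 11 of 23 members with a promoter held a match (47.8%). The list was chosen as interferon-stimulated, so its share describes the list and does not bear on the tissue difference. Over all genes called higher in MLN the share was 6.26% of 847, against 3.85% of 468 called higher in spleen and 3.04% of 8778 not called. The 5 promoters below belong to the members with a match and the smallest adjusted p, each shown as a stretch of 100 bases around its matches, which are in capitals. Counted back from the start, the first match begins at -20 in Oas1a, -104 in Ifit1, -120 in Rsad2, -78 in Isg15 and -75 in Oas3.
Oas1a (chr5:120907526-120907625, - strand): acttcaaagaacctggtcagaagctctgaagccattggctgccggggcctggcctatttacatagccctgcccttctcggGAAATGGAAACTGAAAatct
Ifit1 (chr19:34640749-34640848, + strand): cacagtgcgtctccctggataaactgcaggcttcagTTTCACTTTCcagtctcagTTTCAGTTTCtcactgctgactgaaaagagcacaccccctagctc
Rsad2 (chr12:26456518-26456617, - strand): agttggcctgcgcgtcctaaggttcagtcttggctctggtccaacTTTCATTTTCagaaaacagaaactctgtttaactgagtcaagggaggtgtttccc
Isg15 (chr4:156200836-156200935, - strand): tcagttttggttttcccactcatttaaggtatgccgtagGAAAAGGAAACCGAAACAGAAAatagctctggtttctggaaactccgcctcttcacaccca
Oas3 (chr5:120777680-120777779, - strand): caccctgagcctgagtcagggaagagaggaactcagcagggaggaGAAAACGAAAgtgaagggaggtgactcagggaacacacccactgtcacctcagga
Oas1a, Ifit1 and Isg15 hold overlapping or repeated matches in these stretches, and Rsad2 and Oas3 hold 1 each. A match describes the letters and does not show binding. Rsad2, which encodes the antiviral protein viperin, had 161, 246 and 231 normalized counts in spleen and 747, 1021 and 1262 in MLN, and Oas3 had 45.1, 74.3 and 130.4 in spleen and 412, 343 and 329 in MLN.

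Some cholesterol synthesis genes were higher in MLN. Of 23 tested members 11 were called higher, among them Hmgcs1, Pmvk, Mvd, Idi1, Fdps, Fdft1, Sqle, Cyp51 and Msmo1, against 14 by DESeq2, and 0 lower by either tool or at an unadjusted p under 0.05, with a median log2 fold change of 1.09. The named genes encode enzymes of sterol synthesis. Idi1, which isomerizes isopentenyl diphosphate, had 163, 247 and 315 normalized counts in spleen and 898, 3748 and 3808 in MLN (log2 fold change 3.54, SE 0.67, adjusted p = 0.00632). Fdft1, which makes squalene, had 594, 456 and 702 in spleen and 1173, 3292 and 3719 in MLN (log2 fold change 2.22, SE 0.40, adjusted p = 0.00535), and Sqle, which oxidizes it, had 769, 1068 and 1090.1 in spleen and 1946, 4369 and 5399 in MLN (log2 fold change 2.0, SE 0.39, adjusted p = 0.00704). MLN replicate 1 was the lowest MLN library for all 11 genes, as for the migratory genes. The count was 15 without MLN replicate 1, 11 without spleen replicate 3, 5 and 4 without spleen replicates 1 and 2, and 6 and 4 without MLN replicates 2 and 3. The sterol regulatory element, searched as TCACNCCAC on both strands, was found in 1 of the 16 members with a promoter in RefSeq, and in 1.22% of all 27025 promoters.

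**Figure D3:**
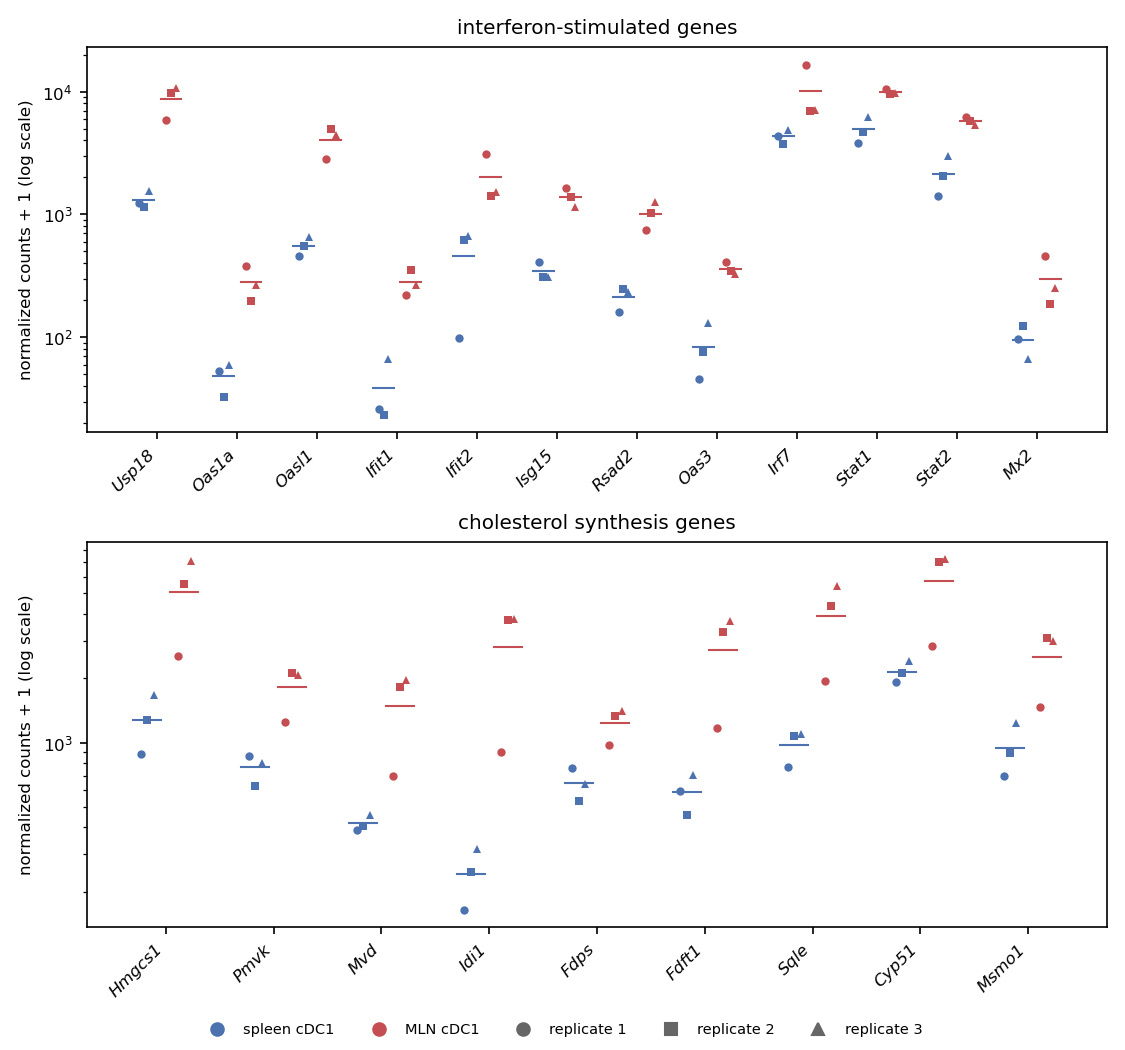
Normalized counts plus 1 on a log axis for interferon-stimulated genes (top) and cholesterol synthesis genes (bottom) in spleen (blue) and MLN (red) cDC1s, with circles, squares and triangles for replicates 1, 2 and 3 and bars for means of 3 libraries. MLN replicate 1 was the highest MLN library for Irf7, Ifit2 and Oas1a but the lowest for every cholesterol synthesis gene shown.

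Most antigen presentation genes were not called. Of 24 MHC class I and cross-presentation genes 6 were higher in MLN and 1 was lower, with a median log2 fold change of 0.54. B2m, the light chain of MHC class I, had 73400.0, 59925 and 82130.5 normalized counts in spleen and 117602, 244680.0 and 230550.4 in MLN (log2 fold change 1.46, SE 0.31, adjusted p = 0.0115), and Tapbp, which loads peptides, had 33829, 29112 and 37008 in spleen and 48762, 106295 and 94422 in MLN (log2 fold change 1.32, SE 0.29, adjusted p = 0.0124). H2-Q7, which has near-identical neighbors and is therefore uncertain, had a log2 fold change of 1.92. Of 12 MHC class II genes 2 (16.7%) were lower in MLN (H2-Aa and H2-Ob), or 9 at an unadjusted p under 0.05 and 7 by DESeq2, and 0 were higher by any of these. The median was -0.95, and 11 of the 12 fold changes were below 0. The sort required MHC class II on the cells, so the levels of its genes are not independent of the gate. H2-Aa had 392498, 279987 and 341389 normalized counts in spleen and 255311, 111241 and 149164 in MLN (log2 fold change -0.98, SE 0.28, adjusted p = 0.0403). Without MLN replicate 1, 11 class II genes were called higher in spleen, while without any 1 of the other 5 libraries, or scaled by library size only, 0 were.

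Some receptors for uptake of antigen and dead cells were lower in MLN. Of 26 tested members 7 were called lower (Havcr2, Timd4, Cd209a, Cd300lf, Clec4n, Fcgr2b and Fcgr3) and 0 higher, or 12 and 2 both at an unadjusted p under 0.05 and by DESeq2, with a median log2 fold change of -1.0. Havcr2, which encodes TIM-3, had 16271, 22622 and 22904 normalized counts in spleen and 10085, 3862 and 5249.7 in MLN (log2 fold change -1.69, SE 0.37, adjusted p = 0.0134). Cd300lf, an inhibitory lipid receptor, had 217, 189 and 276 in spleen and 86.3, 74 and 46 in MLN (log2 fold change -1.73, SE 0.31, adjusted p = 0.00492). Of 23 integrin and adhesion genes 5 were lower, among them Itgax, Itgam, Itgal and Icam2, and 2 were higher (Itgb8 and Icam1). Itgax and Itgam encode CD11c and CD11b, which the sort used, so their levels are not independent of the gate. Itgal, the LFA-1 alpha chain, had 7003, 10180.1 and 12252 in spleen and 4798, 1846 and 2455 in MLN. The uptake count was 10 without MLN replicate 1 and 8 without spleen replicate 3. It was 5 and 4 without spleen replicates 1 and 2, and 4 and 2 without MLN replicates 2 and 3.

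Receptors for chemokines and positioning cues included calls in both directions. Of 22 tested members 2 (9.09%) were higher in MLN (Ccr7 and S1pr1), near the 7.66% of all genes. Another 3 (13.6%) were lower (Ccr3, Cxcr4 and Gpr183), against 3.86% of all genes. Cxcr4, the receptor for CXCL12, had 1788, 2274 and 1723 normalized counts in spleen and 353, 270.4 and 559.6 in MLN (log2 fold change -2.29, SE 0.28, adjusted p = 7.97e-04). Gpr183, the oxysterol receptor that positions cells within spleen and nodes, had 1859.9, 2512 and 1607 in spleen and 639.5, 293 and 458 in MLN (log2 fold change -2.1, SE 0.28, adjusted p = 0.00117). Ccr3, the eotaxin receptor, had 18, 39.7 and 40.7 in spleen and 0 counts in every MLN library, at least 11-fold lower. These 3 decreases were called whichever 1 of the 6 libraries was left out, whereas the 2 increases were lost without any 1 of 4 libraries.

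Cytokine genes included 3 that were higher in MLN (Il15, Il27 and Csf1) and 2 that were lower (Il1b and Tgfb1), of 19 tested. Il1b, an inflammatory cytokine of myeloid cells, had 51752, 50954 and 37592 normalized counts in spleen and 15681, 3676 and 12871 in MLN (log2 fold change -2.12, SE 0.42, adjusted p = 0.00801). Il15, which supports CD8 T cells and NK cells, had 895, 732 and 1090.1 in spleen and 1639.5, 3974 and 3509 in MLN (log2 fold change 1.75, SE 0.49, adjusted p = 0.0358). Il12b, the p40 subunit for which cDC1s are best known, had 10310.5, 9501 and 11929 in spleen and 6745, 7524 and 11555 in MLN and overlapped. Among 19 Toll-like receptor genes 1 was higher (Tlr1) and 1 was lower (Cd14, the coreceptor for lipopolysaccharide, with 2788, 2067 and 1378 in spleen and 593, 296 and 314 in MLN). Tlr11 and Tlr12, the profilin sensors of cDC1s, overlapped, with log2 fold changes of -0.58 and -0.39. Cxcr3, Cx3cr1 and Ido1 overlapped as well.

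Of 24 immediate early genes 6 were lower (Fosl2, Jund, Dusp2, Nr4a2, Nr4a3 and Klf2) and 2 were higher (Zfp36 and Klf6), with a median log2 fold change of -1.10. Nr4a3, an orphan nuclear receptor, had 5323, 5491 and 2087 normalized counts in spleen and 1213, 808 and 1255 in MLN (log2 fold change -1.98, SE 0.40, adjusted p = 0.00828). Spleen replicate 3 was the lowest spleen library for all 6, and for Klf2, with 3366, 2896 and 330.3 in spleen and 335, 257 and 548 in MLN, it lay within the MLN range. The count was 1 without spleen replicate 1 or 2 or without MLN replicate 2 or 3, and it was 4 without MLN replicate 1 and 8 without spleen replicate 3. Of 13 heat shock genes 0 were called in either direction by edgeR's test or DESeq2, with 1 higher in MLN at an unadjusted p under 0.05, and of 23 NF-kB response genes 4 were higher and 3 were lower. Among 40 cell cycle genes 3 were lower (Ccna2, Mcm3 and Mcm5), with a median of -0.34.

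**Figure D4:**
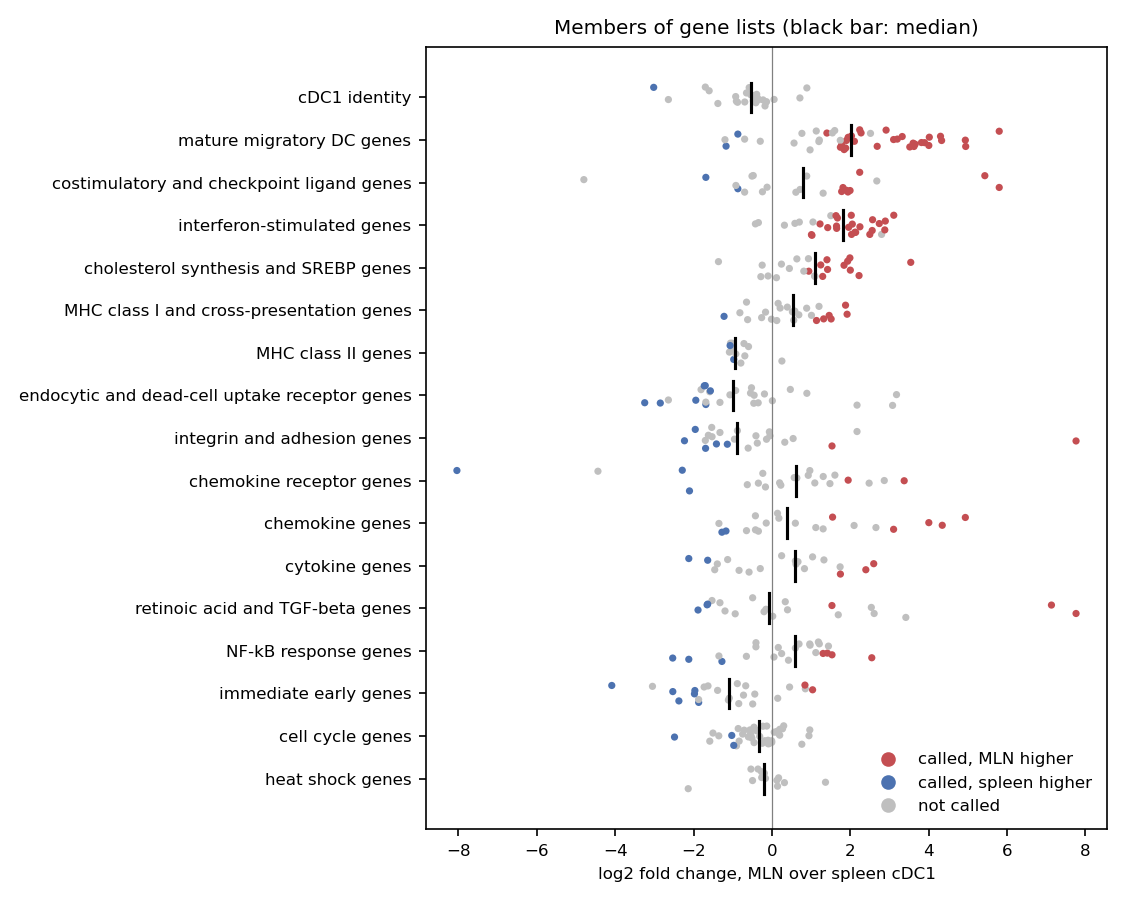
Log2 fold change of MLN over spleen cDC1s (x axis) for each tested member of 17 gene lists (y axis). Red and blue points were called higher in MLN and in spleen, gray points were not called, and black bars are medians. Migratory (2.03) and interferon-stimulated genes (1.82) have the highest medians shown, and the medians of MHC class II (-0.95), uptake receptor (-1.0) and immediate early genes (-1.10) lie below 0.

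Among single genes higher in spleen, Adgrl3, a latrophilin-type adhesion receptor (chr5:81020138-81825133 of mm10), had 446, 597 and 937 normalized counts in spleen and 4.02, 0 and 3.6 in MLN (log2 fold change -7.91, SE 0.57, adjusted p = 1.12e-05). Gp2, a glycoprotein known from pancreas and intestinal M cells (chr7:119442537-119459285 of mm10), had 2321, 1542 and 1855 in spleen and 23.1, 7.51 and 33.3 in MLN (log2 fold change -6.46, SE 0.68, adjusted p = 3.46e-04). Serpinb2, a protease inhibitor of activated myeloid cells, had 1284, 1706 and 2156 in spleen and 12, 5.36 and 0 in MLN. For these 3 genes every spleen library stood far above every MLN library. The decoy receptor Il1r2 had 1375, 998 and 791 in spleen and 35.1, 11.8 and 29.7 in MLN (log2 fold change -5.35), and Car1, a carbonic anhydrase of red cells and gut, had 762, 1126 and 768 in spleen and 7.03, 44 and 8.11 in MLN. Pcsk5, Adgrf5, Usp2 and Slc25a33 had log2 fold changes of -6.89, -5.92, -4.43 and -4.71. Rfxap, a subunit of the factor that drives MHC class II genes, had 1503, 935 and 52.6 in spleen and 39.2, 41.8 and 43.3 in MLN, where spleen replicate 3 lay close to the MLN libraries.

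Some markers of other blood cells were also higher in spleen. Mpo and Elane, granule enzymes of neutrophil precursors, had 0 counts in every MLN library. In spleen Mpo had 105, 234 and 190.3 normalized counts (at least 59.3-fold lower in MLN) and Elane had 22, 79.4 and 25.1 (at least 14.2-fold lower). Hemoglobin Hbb-bs had 123, 50.9 and 59.8 in spleen and 1, 1.07 and 0 in MLN. Of 7 tested granulocyte markers 3 were lower in MLN, as were 3 of 8 erythroid markers and 4 of 17 macrophage markers (Adgre1, Spic, Csf1r and Lyz2), while 0 of these were called higher by either tool. The summed macrophage list ranged from 30295 to 43638 normalized counts in spleen and from 15467 to 20063 in MLN, and the granulocyte list from 744 to 1025 and from 7.03 to 347. Lyz2, which encodes lysozyme, had 33311, 20744 and 19698 in spleen and 10056, 6477 and 5257 in MLN. Of 12 tested B cell markers 2 were lower in MLN (Ms4a1 and Ighm) and 10 were not called, with a median log2 fold change of 0.72 and 8 of the 12 above 0. Of 16 cDC2 markers 3 were higher (Esam, Tmem176a and Tmem176b) and 4 lower (Cd209a, Cd300a, Cd7 and Itgam, which encodes the sort marker CD11b). The part of these cells in the genes higher in spleen was not tested.

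The remaining lists had few calls. Of 30 transcription factors of dendritic cells 3 were higher in MLN (Irf1, Stat5a and Etv3) and 4 lower (Nfil3, Bcl11a, Runx3 and Cebpa). Irf1, which acts downstream of interferon gamma, had 7011, 5827 and 10982 normalized counts in spleen and 16469, 42386 and 39931 in MLN (log2 fold change 2.05, SE 0.41, adjusted p = 0.00777). Runx3 had 2862, 2319 and 444 in spleen and 495, 189 and 252 in MLN, with spleen replicate 3 apart from the other spleen libraries. Pfkfb3, a regulator of glycolysis, was the 1 gene of 17 glycolysis and glucose transport genes that was called (4861, 7407 and 9306 in spleen and 13873, 52789 and 46692 in MLN). Abcg1 and Apoe, which export cholesterol, went in opposite directions, with log2 fold changes of 1.83 and -3.27, the only calls among 10 genes of the liver X receptor list. Of 16 clock genes Nfil3 alone was called. Of 10 stromal and endothelial markers Kdr and Ccl21a were higher in MLN and Pecam1 was lower, and of 8 epithelial markers Fabp2 was higher, from 0 counts in spleen to 9.04, 13.9 and 21.6 in MLN. Xist, transcribed from the inactive X chromosome, was present in all 6 libraries and was called higher in MLN without overlap (log2 fold change 0.78). The Y-linked Kdm5d and Uty had 0 counts in all 6.

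The tissue difference of cDC1s was then compared with that of each cDC2 subset, which the same fit allows. Of the 1287 genes higher in MLN in cDC1s 316 (24.6%) were also called higher in MLN in T-bet+ cDC2s, which is 50.5% of the 626 genes higher there, and 464 (36.1%) in T-bet- cDC2s, 65.2% of 712. Of the 649 genes higher in spleen 103 and 120 were also called in those subsets. In both cDC2 subsets 228 of the 1287 genes (17.7%) were called higher in MLN, as were 18 of the 30 migratory genes and 4 of the 22 interferon-stimulated genes (18.2%). A call in 1 subset only does not show a difference, which the interaction term tests. By that test 15 genes of 16795 (0.0893%) differed between cDC1s and T-bet+ cDC2s and 6 (0.0357%) between cDC1s and T-bet- cDC2s. Both comparisons use the same cDC1 libraries. DESeq2 called 239 and 121, and without MLN cDC1 replicate 1 edgeR called 114 and 26. Ccr7, Fscn1, Aldh1a2 and Itgb8 were not called in either interaction.

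Pdcd1lg2 differed against both subsets. In spleen it had 834, 902 and 1032 normalized counts in T-bet+ cDC2s and 978, 1014 and 817 in T-bet- cDC2s, against 50.1, 30.5 and 79 in cDC1s. In MLN it had 1235 and 2264 in T-bet+ cDC2s and 1922 and 1137 in T-bet- cDC2s, against 1239.9, 4159.6 and 3481 in cDC1s. The difference between the tissue effects was 4.88 (SE 0.68, adjusted p = 0.0188) for T-bet+ cDC2s and 5.09 (SE 0.68, adjusted p = 0.0123) for T-bet- cDC2s on the log2 scale, so spleen cDC1s had the low level and cDC2s of both organs were closer to the MLN cDC1s. The call against T-bet+ cDC2s was lost without spleen cDC1 replicate 1 or MLN cDC1 replicate 3, and that against T-bet- cDC2s without spleen cDC1 replicate 1. Adgrl3 differed in the other direction, by -7.21 (SE 0.69, adjusted p = 8.33e-04) from T-bet+ cDC2s and by -6.11 (SE 0.69, adjusted p = 0.00315) from T-bet- cDC2s. It had 1496 and 823 normalized counts in MLN T-bet+ cDC2s and 284 and 351 in MLN T-bet- cDC2s, where cDC1s had 4.02, 0 and 3.6. Cd209b, a C-type lectin, was higher in MLN than in spleen in cDC1s at a low level and lower in both cDC2 subsets, with differences of 3.82 and 5.45. The first of these was lost without spleen cDC1 replicate 2 or 3 or MLN cDC1 replicate 3.

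Against T-bet+ cDC2s the largest negative differences were those of Clec4b2, Gcsam, Adgrl3 and Gp2. Clec4b2, a C-type lectin receptor, had 932, 785 and 1179.8 normalized counts in spleen cDC1s and 121, 41.8 and 88.3 in MLN cDC1s, whereas T-bet+ cDC2s had 0, 0 and 3.08 in spleen and 37.2 and 29.6 in MLN, with a difference of -8.44 (SE 1.09, adjusted p = 0.011) that was lost without MLN cDC1 replicate 3. Gp2 had 809, 689 and 263 in spleen and 869.8 and 426 in MLN in those cells, with a difference of -6.60 (SE 0.85, adjusted p = 0.011). The largest positive differences were those of Pdcd1lg2, Dtx1, St14 and Cd209b. St14, the membrane protease matriptase, had 336, 261 and 298 normalized counts in spleen cDC1s and 1054, 4329 and 3444 in MLN cDC1s, against 4536, 3865 and 4080.1 in spleen and 1855 and 2862 in MLN in T-bet+ cDC2s. The St14 difference was called in 8 of 15 alternative fits and lost without any 1 cDC1 library except MLN replicate 1. Oas1a was low in cDC1s of both organs (52.1, 31.6 and 58.6 in spleen and 383, 197 and 264 in MLN). T-bet+ cDC2s had 1743, 1774 and 1637 in spleen and 1622 and 1062 in MLN. The Oas1a difference was called in 9 of 15 alternative fits, not without any 1 spleen cDC1 library or MLN cDC1 replicate 3. Against T-bet- cDC2s, Tppp3 rose in cDC1s from 61.1, 48.9 and 47.9 to 197, 269 and 238 and fell in T-bet- cDC2s from 938, 1202 and 694 to 129 and 132.

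**Figure D5:**
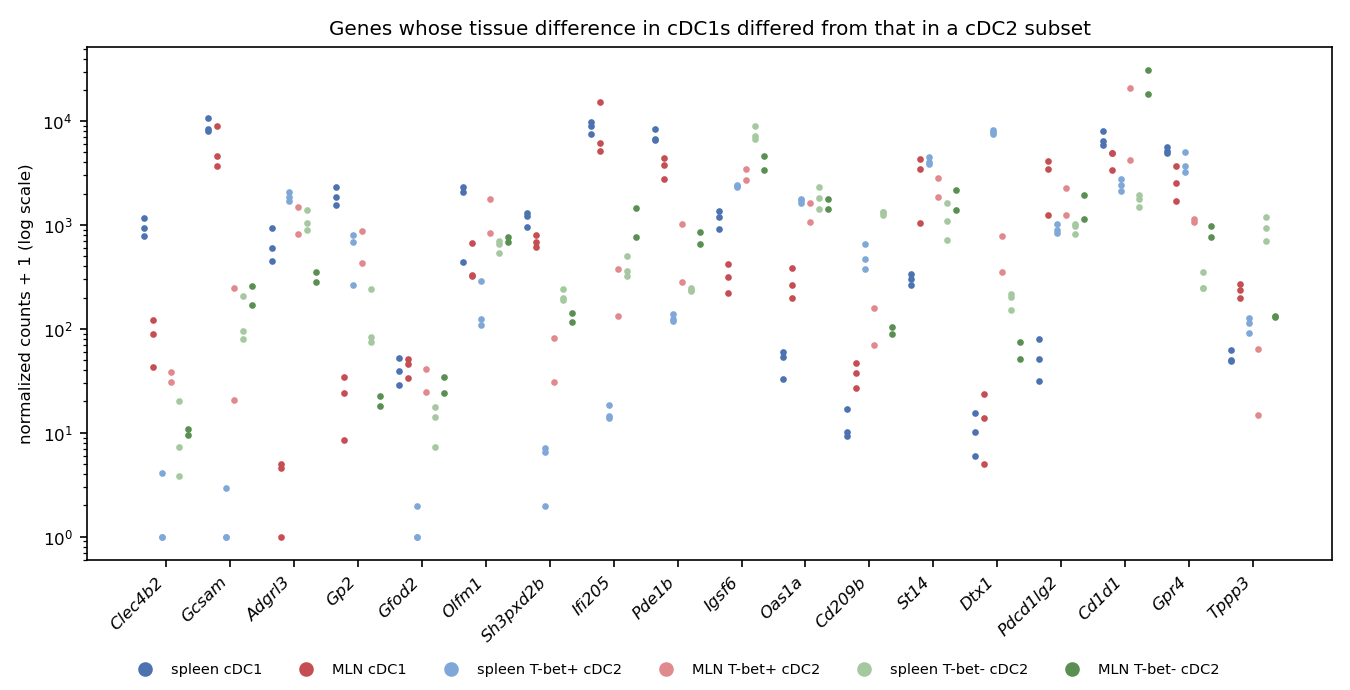
Normalized counts plus 1 on a log axis for the 18 genes whose tissue difference in cDC1s differed from that in T-bet+ or T-bet- cDC2s by the interaction test. Each point is 1 library, colored by subset and organ as in the key (3 spleen libraries per subset, 3 MLN libraries for cDC1s and 2 for each cDC2 subset). Pdcd1lg2 lies between 31 and 79 in spleen cDC1s and between 817 and 4160 in all other groups, and Adgrl3 lies below 5 in MLN cDC1s alone.

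Chromatin accessibility by ATAC-seq was measured in cDC1s of the spleen, in 2 libraries, and not in MLN, so it describes promoters in splenic cells only. Peaks within 2000 bases of a gene start were found for 54.6% of 1081 genes higher in MLN (exact 95% interval 51.6% to 57.6%), 57.2% of 598 higher in spleen (53.1% to 61.2%) and 49.1% of 11444 not called (48.2% to 50.0%). The authors called the peaks on all subsets together, and the intervals cover counting error only. The median of the strongest peak was 37.8, 40.5 and 47.2 CPM, counted per library over reads in peaks, in these 3 sets of genes. Pdcd1lg2 had a promoter peak of 10.4 and 14 CPM in the splenic cDC1 libraries, where its RNA was low, and Aldh1a2 one of 36.0 and 36.8. The peak at Spib had 1.76 and 1.93 CPM, and that at Oas1a had 1.85 and 2.14. The Pdcd1lg2 peak was higher in splenic cDC1s than in the 4 splenic cDC2 libraries (2.2 to 4.06), the opposite order from its RNA there. The Pdcd1lg2 promoter holds the NF-kB consensus, as do 4.46% of the 27025 promoters, 7.56% of those of genes higher in MLN, 5.51% of those of genes not called, and 1 of 20 promoters of migratory genes higher in MLN. The stretch from -250 to -151 relative to the start is shown with the match in capitals, which begins at -244.
Pdcd1lg2 (chr19:29410669-29410768, + strand): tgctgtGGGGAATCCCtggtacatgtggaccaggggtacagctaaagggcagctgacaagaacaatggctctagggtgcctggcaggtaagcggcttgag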

How the data were processed

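RNA-seq libraries of sorted cDC1s from spleen and MLN were analysed together with those of T-bet+ and T-bet- cDC2s, and ATAC-seq libraries of spleen cDC1s were used for promoters. The authors made the deposited gene counts by aligning paired reads to mm10 with HISAT2 2.1.0 and assigning them to GENCODE genes, and deposited ATAC-seq read counts in peaks that were called with MACS2 on all replicates together. The score column of the deposited peak list holds a constant 0 and was not used. The strand setting of the gene counting is not given in the sources used here, so overlapping and antisense genes can share reads, and near-identical genes (Ifit3 and Ifit3b, Hba-a1 and Hba-a2, the H2-Q family, Oas1a and Gimap3) are uncertain.

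Counts of 16795 of 34047 genes passed edgeR's expression filter and were tested with its quasi-likelihood test (edgeR 4.0.16, TMM scaling, R 4.3.3) in 1 model of 6 groups and 16 libraries, with 10 residual degrees of freedom and Benjamini-Hochberg adjustment. Contrasts were MLN minus spleen in cDC1s, and its difference from the same contrast in each cDC2 subset. SE is the absolute log2 fold change divided by the square root of F. The methods call the libraries biological replicates of an experiment done once, so p-values measure the spread between these libraries. The test of MLN against spleen cDC1s was tried first on simulated counts of 16795 genes, and the interactions were not tried. Changed genes came from the better expressed ones. Noise was independent between genes, so the simulation lacked the deviations that many genes of a real library share. The test recovered 5 of 50 genes changed 2-fold, 33 of 50 changed 4-fold and 88 of 100 changed 8-fold, with 12 false calls. A gene that was not called can therefore still differ between the organs. Gene positions are from GENCODE M21 on mm10, where 19654 symbols matched, and promoters from RefSeq on GRCm38.p6.

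Named genes were a fixed set of key genes, the 12 largest called changes without overlap in each direction whose mean reached 50 normalized counts, the 4 smallest adjusted p of each list, the 4 largest interactions in each direction, and 45 genes chosen after their values were seen. The comparison, its genes and the 32 lists were chosen with earlier results of these data known. Libraries with the same replicate number were not treated as pairs, and whether they shared mice is not given in the sources used here. Alternatives (DESeq2 1.42.0, other scalings and filters, fewer libraries, a replicate block, a GC term) are given in the closing section. Between 20993220 and 29006549 counts per cDC1 library set the precision. Some genes and markers are not reported here.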

Additional observations from a re-analysis of the deposited data

Results flagged for a closer look

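These genes were singled out because a test of the difference itself, the interaction term in edgeR's quasi-likelihood fit, gave a tissue effect in cDC1s that differed from that in a cDC2 subset. Values are the log2 fold change of MLN over spleen in cDC1s minus that in the subset. Against T-bet+ cDC2s the difference was below 0 for Clec4b2 (-8.44), Gcsam (-8.06), Adgrl3 (-7.21), Gp2 (-6.60), Gfod2 (-6.04), Olfm1 (-4.80), Sh3pxd2b (-4.41), Ifi205 (-4.10), Pde1b (-3.35) and Igsf6 (-2.22). It was above 0 for Oas1a (2.92), Cd209b (3.82), St14 (4.12), Dtx1 (4.28) and Pdcd1lg2 (4.88). Against T-bet- cDC2s it was below 0 for Adgrl3 (-6.11), Cd1d1 (-4.45) and Gpr4 (-2.65), and above 0 for Tppp3 (5.01), Pdcd1lg2 (5.09) and Cd209b (5.45).

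Gfod2 had a log2 fold change of 0.11 in cDC1s and 6.15 in T-bet+ cDC2s, and Ifi205 had 0.02 and 4.12, with calls in T-bet+ cDC2s and none in cDC1s. For Adgrl3 the order was the other way, with -7.91 in cDC1s and -0.70 in T-bet+ cDC2s. Gcsam, a B cell germinal center gene that is also in the cDC1 identity list, had 8094, 8391 and 10697 normalized counts in spleen cDC1s and 9004, 3687 and 4639 in MLN cDC1s. In T-bet+ cDC2s Gcsam went from 1.96, 0 and 0 to 19.6 and 244. Of the same list Clec9a (log2 fold change 5.06), Itgae (4.23), Tlr3, Tlr11 and Tlr12 were also called higher in MLN in T-bet+ cDC2s. Xcr1 (1.68), Cd8a (1.66), Cadm1 (1.40), Cd207 (1.14) and Irf8 (1.14) were above 0 there but were not called. Batf3 (-0.11) and Flt3 (-0.36) were below 0 and not called, and Nfil3 was called lower. The part of cDC1 RNA in the MLN T-bet+ cDC2 libraries was not tested. Dtx1, a Notch target, had at most 23 normalized counts in any cDC1 library and fell in T-bet+ cDC2s from 7479, 7775 and 8255 to 789.7 and 351. Each MLN group of cDC2s held 2 libraries, and the same cDC1 libraries entered both comparisons. The calls differed in how often they held: those of Gcsam, Gfod2 and Ifi205 were kept in 6 of 15 alternative fits and that of Dtx1 in 6 of 14, and these 4 were lost when any 1 cDC1 library other than MLN replicate 1 was left out. Those of Adgrl3 and Gp2 were kept in all 14.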

How the results depend on the processing

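The number of genes called between MLN and spleen cDC1s was 1936 and depended on the setting. It was 471 at an adjusted p under 0.01, 3513 with DESeq2, 3397 with no filter on low counts and 1101 with the 6 cDC1 libraries alone. Leaving out 1 library gave 520 (without spleen replicate 2) to 2929 (without MLN replicate 1). It stayed within 1.5 times under the other scalings, filters and dispersion estimates, from 1690 to 2629. Of the calls 66.5% were higher in MLN, against 56.4% with DESeq2, 52.6% with no filter, 76.9% at an adjusted p under 0.01, 53.1% without spleen replicate 3, and 75.3% and 77.9% without MLN replicates 2 and 3. Numbers shared by replicates were checked for pairing: deviations of same-numbered libraries correlated at -0.03, -0.03 and -0.16 over 8098 genes, while spleen replicate 2 and MLN replicate 3 correlated at 0.27. With so few libraries per organ these correlations cannot show whether libraries of the 2 organs shared mice. With the replicate block 1588 genes were called in the 16 libraries, and 0 of 13488 in the 6 cDC1 libraries with the replicate block, where 3342 had an unadjusted p under 0.05.

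Against T-bet+ cDC2s the 15 interaction calls became 1 at an adjusted p under 0.01, 239 with DESeq2, 8 by library size only, 475 with no filter, 6 with the replicate block and 9 with the GC term, and 2 (without MLN replicate 3) to 114 (without MLN replicate 1) when 1 cDC1 library was left out. Against T-bet- cDC2s the 6 calls became 2, 121 with DESeq2, 261 with no filter, 3 with at least 10 counts in every cDC1 library and 11 with the GC term, and 3 to 26 when 1 library was left out. The cause of these changes was not tested.

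Genes that turned sign were not called in the reported fit. Batf3 turned to 0.015 with the GC term and, without spleen replicate 1, to 0.12 (range -0.36 to 0.12 over fits without 1 library), and Flt3 to 0.10 with the GC term. Tlr3 turned to -0.043 with the replicate block, -0.079 in the 6 libraries with that block, -0.23 with the GC term, -0.26 without spleen replicate 1 and -0.67 without MLN replicate 1 (range -0.67 to 0.39). Itgae turned to 0.10 without MLN replicate 2, and Cxcr3 to 0.15 and 0.07 without MLN replicates 2 and 3 (range -1.01 to 0.15). With peaks counted within 1000 bases of a gene start the share of genes higher in MLN with a peak was 47.6%, against 54.6% within 2000.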
